A study of Mus musculus with 2 samples.

Results

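Lipid-associated macrophage genes were followed here as 9 listed genes, Trem2, Gpnmb, Spp1, Cd9, Lgals3, Lipa, Atp6v0d2, Msr1 and Itgax, of 31053 genes with a row in the count matrices. The list was fixed by name, and all 9 genes were found in both matrices. None of the 9 was used to name a cell class. Their counts were summed over the nuclei of each marker-defined class in each library, and their joint detection was followed in single macrophage-like nuclei, 329 of 3503 nuclei in one library and 838 of 2852 in the other.

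Nuclei came from the inguinal subcutaneous white fat pad (iWAT) of male C57BL/6 mice fed a Western diet for 4 weeks, and their RNA was counted nucleus by nucleus. Lexis is a long noncoding RNA gene. The Lexis KO group (Lexis-AdKO) carried Lexis fl/fl with Adiponectin-Cre, a transgene that acts in adipocytes, so that its macrophages were not the target of the deletion, and the Lexis WT group (Lexis-AdWT) carried Lexis fl/fl without Cre. Each group was 1 library, made from fat of 3 mice pooled before nuclei were isolated, with the lymph node said to have been left out. The deposited file names gave the opposite genotype to the sample labels for both libraries, and the targeted gene was not analysed here, so the labels are unchecked, the libraries are called labelled WT and labelled KO, and each direction rests on them. With 1 library per group there were no replicates and no test was made. Intervals are 95% intervals for counting error, which do not cover differences between mice or preparations.

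The library labelled WT had a median of 1195 unique molecular identifiers (UMIs, each counting 1 captured RNA molecule) per kept nucleus and the library labelled KO 3879. Macrophage-like nuclei had medians of 1448 and 2908 UMIs and 632166 and 2755920 UMIs in all. Macrophage-like nuclei of the 2 libraries lay mostly in different clusters. Cluster 7, led by Ms4a7, Timd4 and Mmp12, held 326 of the 329 nuclei labelled WT, whereas 550 of those labelled KO lay in cluster 3, led by Rbpj, F13a1 and Cd163, and 264 in cluster 9, led by St18 and Gpr141. The macrophage marker list summed to 10831 CPM (counts scaled to the same total in each class and library) in nuclei labelled WT and 17136 in those labelled KO, with 0 of its 20 genes at 0 in either. Lists of other cells also gave counts in these nuclei, in the order labelled WT and labelled KO. The B cell list summed to 1928 and 608 CPM, the T and NK cell list to 908 and 85.6, the adipocyte list to 2117 and 2320, and the list of lymphoid stroma to 410 and 23.2. The ASPC and fibroblast list summed to 1500 and 943 CPM (ASPCs are adipogenic stem and precursor cells), the myocyte list to 925 and 187, and the dendritic list to 862 and 448. Lymphocyte-like nuclei were 2014 of 3503 and 102 of 2852. The part of these differences in the results below was not tested.

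Lipid-associated macrophages gather around enlarged and dying adipocytes in expanding fat, where they take up lipid and break it down in lysosomes. TREM2, a surface receptor for lipids and lipoproteins, signals through the adaptor TYROBP and the kinase SYK and is needed for this state in obese mice. The state is usually recognised by the receptor together with lysosomal, lipid-handling and secreted products of the other genes on the list.

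All 9 genes are protein coding and lie on 8 chromosomes in GRCm38.p6, the patch release of mm10, the build named in the submitters' processing notes. Trem2 lies at chr17:48346401-48352276, Gpnmb at chr6:49036518-49058182, Spp1 at chr5:104435111-104441053, Cd9 at chr6:125460266-125494760, Lgals3 at chr14:47373860-47386167, Lipa at chr19:34492316-34527474, Atp6v0d2 at chr4:19876838-19922566, Msr1 at chr8:39543232-39642750 and Itgax at chr7:128129526-128150657. Promoter windows from RefSeq (GRCm38.p6), reaching 250 bases before and 50 bases after a transcript start, were matched for 7 of the 9 genes, all but Atp6v0d2 and Msr1. They were searched on both strands for 4 motifs. TGANTCA, the AP-1 motif, was found in 3 of 7 genes and in 7.81% of all 32851 windows. GAGGAA, the core bound by PU.1, was found in 3 of 7 (Trem2, Spp1 and Lipa) and in 28.3% of all windows. CATGTG, bound by the MiT factors, was found in 1 of 7 (Cd9) and in 14.2%, and CACGTG in 0 of 7 and in 7.15%. A match is a description of letters and not evidence of binding. The windows of the 3 genes with TGANTCA are printed because Gpnmb had the lowest ratio between libraries of the 9 genes, Itgax the highest ratio between the macrophage clusters labelled KO, and Trem2 encodes the receptor described above. All are on the plus strand and read 5′ to 3′, Trem2 at chr17:48346151-48346450, Gpnmb at chr6:49036268-49036567 and Itgax at chr7:128129300-128129599. Capitals mark the motif matches. TGAATCA begins at base -9 from the Trem2 start and TGACTCA at base 9 of the Gpnmb transcript. In Itgax, TGAGTCA begins at base -56 from the transcript start of its window, which lies inside the gene span given above. The Trem2 window also holds TTCCTC, the other strand of GAGGAA, at -40, with no overlap of the 2 matches.
Trem2: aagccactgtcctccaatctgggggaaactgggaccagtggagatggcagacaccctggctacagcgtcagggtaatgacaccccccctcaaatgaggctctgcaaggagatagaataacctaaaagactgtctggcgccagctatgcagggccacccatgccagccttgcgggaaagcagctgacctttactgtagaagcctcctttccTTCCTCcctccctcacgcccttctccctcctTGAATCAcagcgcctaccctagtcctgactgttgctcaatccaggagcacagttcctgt
Gpnmb: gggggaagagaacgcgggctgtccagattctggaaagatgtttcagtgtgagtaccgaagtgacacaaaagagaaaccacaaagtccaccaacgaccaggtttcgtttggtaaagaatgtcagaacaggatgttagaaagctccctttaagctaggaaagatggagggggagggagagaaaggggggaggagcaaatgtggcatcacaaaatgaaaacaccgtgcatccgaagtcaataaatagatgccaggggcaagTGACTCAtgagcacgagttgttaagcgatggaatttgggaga
Itgax: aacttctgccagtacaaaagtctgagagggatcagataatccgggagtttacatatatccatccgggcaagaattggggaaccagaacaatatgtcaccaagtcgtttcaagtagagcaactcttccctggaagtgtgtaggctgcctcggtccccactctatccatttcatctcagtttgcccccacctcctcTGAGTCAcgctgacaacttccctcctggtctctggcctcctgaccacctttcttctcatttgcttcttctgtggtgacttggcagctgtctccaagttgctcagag

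Across cell classes, 8 of the 9 genes in the WT-labelled library and 7 of the 9 in the KO-labelled library had at least 2 times the CPM in macrophage-like nuclei that they had in all other nuclei of the same library. Spp1 had under 50 counts in the library labelled KO, and without it the count there was 6 of 8. Of all genes with at least 50 counts, 9.47% of 10945 in the WT-labelled library and 19.3% of 13410 in the KO-labelled library did so. The median ratio of the 9 genes was 8.37 and 10.2, against 0.958 and 1.07 over all genes. Cd9 was below this fold in both libraries, and Gpnmb only in the library labelled KO. Levels of different genes are not compared with each other, since the counts are not scaled to transcript length.

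**Figure D1:**
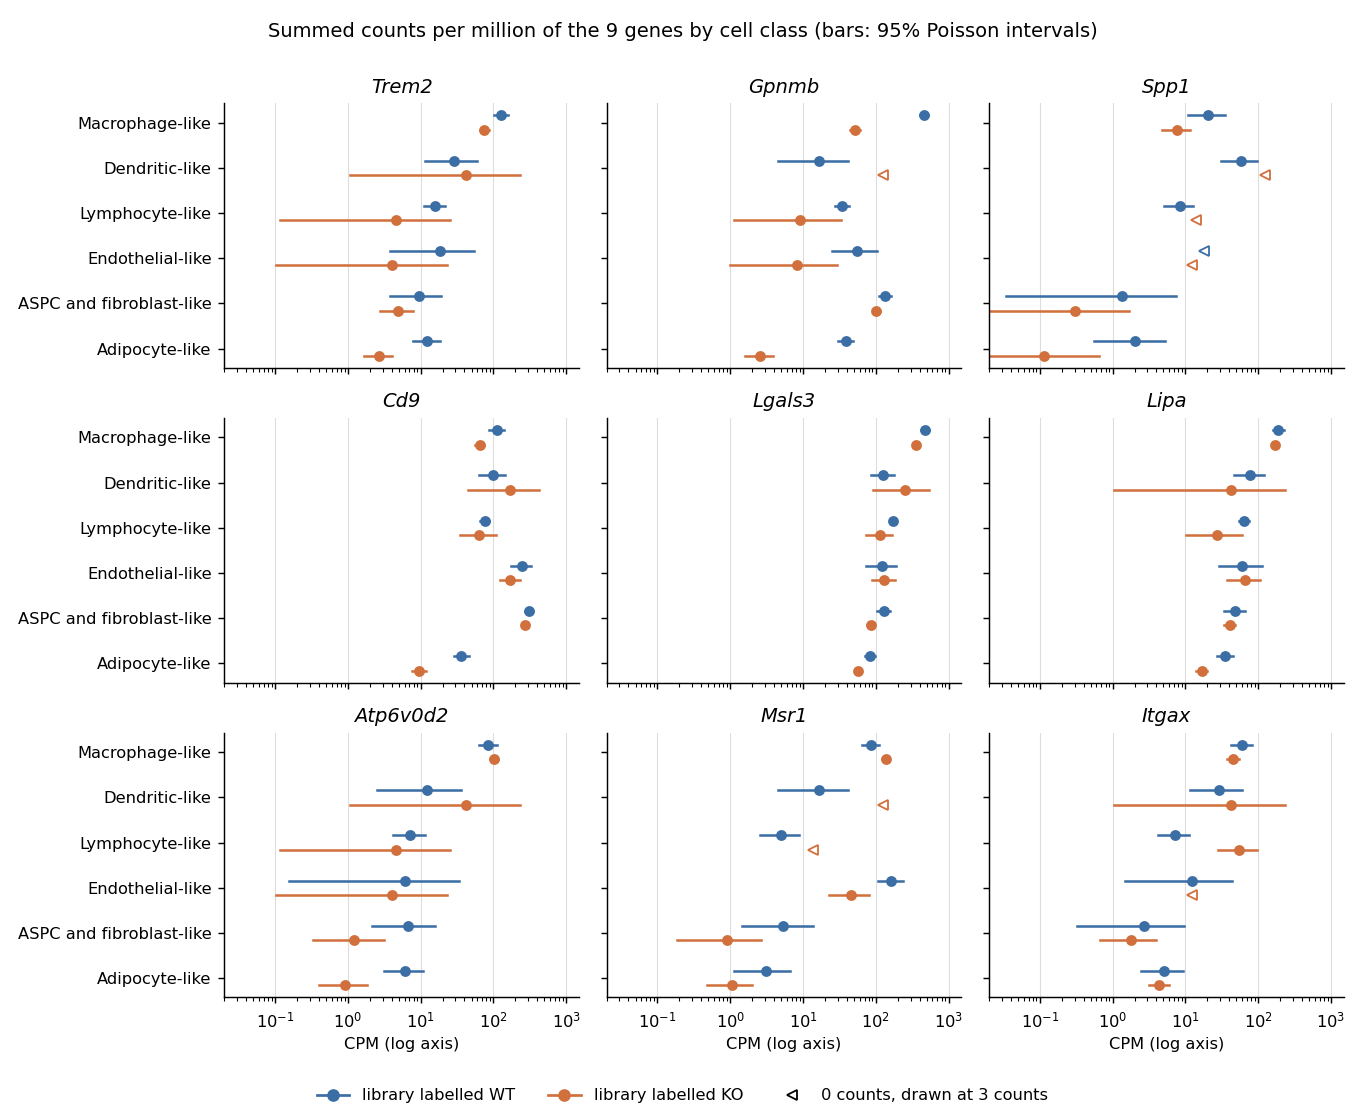
CPM (log axis) of each of the 9 genes summed over the nuclei of 6 cell classes, with 95% Poisson intervals, in the library labelled WT (blue) and the library labelled KO (orange), and open triangles at 3 counts for classes with 0 counts. Macrophage-like nuclei are the highest class for Trem2 and Lipa in both libraries, while Cd9 is highest in ASPC and fibroblast-like nuclei, at 309 and 274 CPM.

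The surface receptors were Trem2, Msr1 and Itgax. Trem2 had 81 counts (128 CPM, interval 102 to 159) in macrophage-like nuclei labelled WT and 207 counts (75.1 CPM, 65.2 to 86.1) in those labelled KO. All other nuclei held 14.9 and 3.34 CPM, so that the gene was 8.62 times (6.30 to 11.8) and 22.5 times (16.1 to 32.0) higher in macrophage-like nuclei. In the library labelled WT the next named classes were dendritic-like at 28.6, endothelial-like at 18.2, lymphocyte-like at 15.9, adipocyte-like at 12.3 and ASPC and fibroblast-like at 9.37 CPM, and the intervals of neighbours in this order overlapped.

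Msr1, scavenger receptor A, which takes up modified lipoproteins, had 54 counts (85.4 CPM, 64.2 to 111) in macrophage-like nuclei labelled WT and 376 counts (136 CPM, 123 to 151) in those labelled KO. It was 8.38 times (5.70 to 12.3) and 76.3 times (50.1 to 122) higher there than in all other nuclei. Endothelial-like nuclei came second in the library labelled KO at 44.9 CPM (11 counts in 8 nuclei). In the WT-labelled library they reached 164 CPM (27 counts in 14 nuclei, 108 to 239), an interval that overlapped that of macrophage-like nuclei.

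Itgax, the integrin alpha chain CD11c, is carried by dendritic cells and by inflammatory macrophages of fat. It had 38 counts (60.1 CPM, 42.5 to 82.5) in macrophage-like nuclei labelled WT and 125 counts (45.4 CPM, 37.8 to 54.0) in those labelled KO, which was 8.37 times (5.26 to 13.3) and 10.2 times (7.42 to 14.3) the level in all other nuclei. Dendritic-like nuclei labelled WT held 28.6 CPM (7 counts). Lymphocyte-like nuclei held 7.11 CPM in the WT-labelled library and 55.1 CPM (12 counts in 8 nuclei, 28.5 to 96.2) in the KO-labelled library, where they could not be told apart from macrophage-like nuclei by their intervals.

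Cd9, a tetraspanin of the cell surface, did not stand at 2 times the level of other nuclei in macrophage-like nuclei of either library. Macrophage-like nuclei held 70 counts (111 CPM, 86.3 to 140) in the WT-labelled library and 179 counts (65.0 CPM, 55.8 to 75.2) in the KO-labelled library, against 103 and 82.1 CPM in all other nuclei, ratios of 1.07 (0.825 to 1.37) and 0.791 (0.671 to 0.928). ASPC and fibroblast-like nuclei held 309 CPM (271 to 352) and 274 CPM (257 to 293), and endothelial-like nuclei 243 and 171 CPM. Within each library the intervals of macrophage-like and ASPC and fibroblast-like nuclei did not overlap.

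The lysosomal members were Gpnmb, Lipa and Atp6v0d2. Gpnmb encodes a transmembrane glycoprotein of lysosomes and the cell surface. It had 290 counts (459 CPM, 407 to 515) in macrophage-like nuclei labelled WT and 143 counts (51.9 CPM, 43.7 to 61.1) in those labelled KO. Against all other nuclei this was 9.64 times (8.15 to 11.4) and 1.80 times (1.47 to 2.19). With nuclei assigned by their own markers in place of clusters these ratios were 3.18 and 0.803, so that the direction in the library labelled KO turned. ASPC and fibroblast-like nuclei also held Gpnmb, at 134 CPM (109 to 163) in the WT-labelled library and 102 CPM (91.1 to 113) in the KO-labelled library, so that in the library labelled KO macrophage-like nuclei came after them. When each library was clustered on its own, ASPC cluster KO8 (56 nuclei) held 493 CPM of Gpnmb (42 of 56 nuclei with a UMI) and 917 CPM of Cd9 (52 of 56), with both genes in 41 nuclei. The other ASPC clusters labelled KO held 24.1 and 62.1 CPM of Gpnmb, and the ASPC cluster labelled WT 131 CPM. Cluster KO8 also held 1376 CPM of F3 and 1407 CPM of Gdf10, genes from the fixed ASPC marker list.

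Lipa encodes lysosomal acid lipase, which cleaves cholesteryl esters and triglycerides delivered to lysosomes. It had 120 counts (190 CPM, 157 to 227) in macrophage-like nuclei labelled WT and 470 counts (171 CPM, 155 to 187) in those labelled KO, 3.55 times (2.85 to 4.39) and 7.14 times (6.17 to 8.28) the level of all other nuclei. The other classes ran from 35.3 CPM (adipocyte-like) to 77.8 CPM (dendritic-like) in the library labelled WT, leaving aside 10 mural-like nuclei.

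Atp6v0d2 encodes the d2 subunit of the membrane part of the V-ATPase, the pump that acidifies lysosomes. It had 54 counts (85.4 CPM, 64.2 to 111) in macrophage-like nuclei labelled WT and 279 counts (101 CPM, 89.7 to 114) in those labelled KO. Macrophage-like nuclei held 57.4% and 94.3% of all its UMIs. The ratio to all other nuclei was 12.8 (8.34 to 19.7) and 76.6 (47.0 to 133), with 40 and 17 counts outside the class.

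The secreted products were Lgals3 and Spp1. Lgals3 encodes galectin-3, a lectin that binds galactose-bearing glycans and gathers on damaged lysosomes. It had 301 counts (476 CPM, 424 to 533) in macrophage-like nuclei labelled WT and 979 counts (355 CPM, 333 to 378) in those labelled KO, 3.58 times (3.12 to 4.09) and 5.32 times (4.85 to 5.84) all other nuclei. With nuclei assigned by their own markers the ratio in the library labelled WT was 1.77, under the fold of 2. Lymphocyte-like nuclei came next in the library labelled WT at 174 CPM (158 to 191), and every class present in a library had counts of Lgals3.

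Spp1 encodes osteopontin, a secreted ligand of integrins and CD44. It was sparse, with 13 counts in 7 macrophage-like nuclei labelled WT (20.6 CPM, 10.9 to 35.2) and 21 counts in 4 nuclei labelled KO (7.62 CPM, 4.72 to 11.6). One nucleus labelled KO held 17 of the 21 counts. Elsewhere in the library labelled WT, 14 counts lay in 1 dendritic-like nucleus and 20 in 18 lymphocyte-like nuclei, whereas the library labelled KO had 2 counts outside macrophage-like nuclei. The ratios to all other nuclei, 2.86 (1.41 to 5.42) and 49.0 (12.0 to 431), therefore rest on few nuclei.

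The macrophage-like nuclei of the 2 libraries were next compared gene by gene. Gpnmb was 0.113 times as high (0.0919 to 0.139) in the library labelled KO as in the library labelled WT and Spp1 0.371 times (0.177 to 0.805). These 2 of the 9 genes were at or below 0.5, and 0 of 9 were at or above 2. Spp1 had 34 counts in all, under the minimum of 50 counts for a call, so that 1 of the 8 genes past this minimum was at or below 0.5. Among 8599 genes with at least 50 macrophage counts, 12.9% were at or below 0.5 and 24.3% at or above 2, so changes of this size were common between these libraries. Trem2 was 0.586 times as high (0.451 to 0.768), Cd9 0.587 (0.443 to 0.785) and Lgals3 0.746 (0.655 to 0.852). With nuclei assigned by their own markers Lgals3 turned to 1.09, Cd9 was 0.424 and Spp1 0.556. Msr1 was the only member with an interval above 1, at 1.60 (1.20 to 2.17). The intervals of Lipa (0.898, 0.734 to 1.11), Itgax (0.755, 0.521 to 1.12) and Atp6v0d2 (1.19, 0.883 to 1.62) included 1. Gpnmb was also lower in the library labelled KO outside macrophage-like nuclei. Adipocyte-like nuclei held 38.3 CPM of it labelled WT and 2.55 labelled KO, with intervals that did not overlap. Endothelial-like nuclei held 54.7 and 8.16 CPM and lymphocyte-like nuclei 34.3 and 9.18, each with 2 counts labelled KO and overlapping intervals. ASPC and fibroblast-like nuclei held 134 and 102 CPM, also with overlapping intervals. Summed over the 9 genes, macrophage-like nuclei held 1021 and 2779 counts, a ratio of 0.624 (0.581 to 0.671). Gpnmb alone gave 290 of the 1021 and 143 of the 2779 counts, so this ratio rests in large part on 1 gene.

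Ratios between these libraries moved with gene span, the distance from the start to the end of a gene. The median log2 ratio was -0.42 over the 9 genes and 0.08 over all genes tested. After the median of genes of like span was subtracted (8401 genes in 20 bins), the log2 ratio of Gpnmb was -3.02 and that of Cd9 -0.77, while Trem2 stood at -0.15, Lgals3 at -0.04, Msr1 at -0.03, Atp6v0d2 at -0.03, Lipa at -0.16 and Itgax at -0.28. The median over the 8 genes was -0.15. Spp1 had under 50 counts and no such value. Msr1, which spans 99519 bases, thus stood above 1 by CPM and at the level of genes of like span, and Trem2, which spans 5876 bases, stood below 1 by CPM and near genes of like span. Whether reads in introns were counted is not given in the sources used here, and the part of gene span in these ratios was not tested further.

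**Figure D2:**
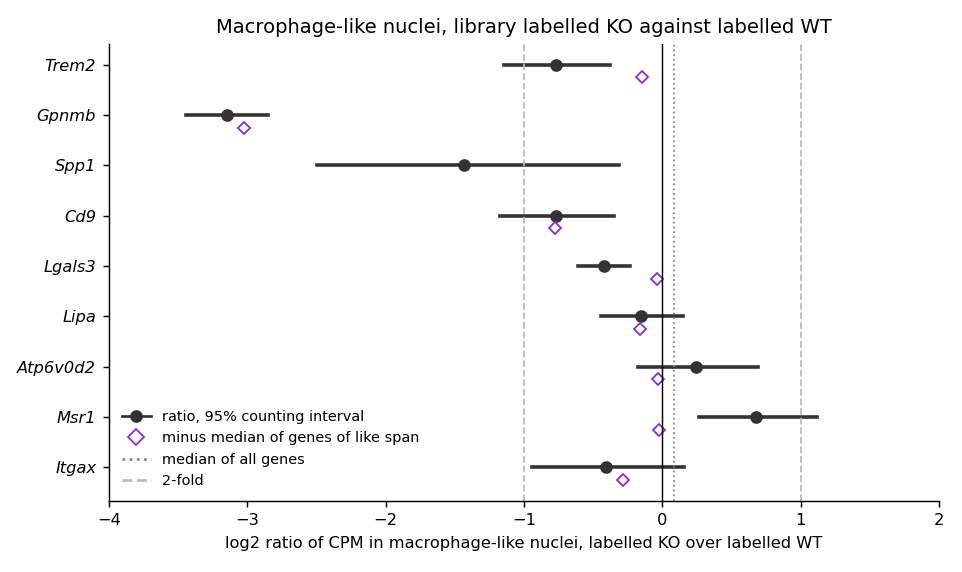
Log2 ratio of CPM in macrophage-like nuclei (library labelled KO over library labelled WT) for each of the 9 genes, with 95% counting intervals (circles and bars) and after subtraction of the median of genes of like span (open diamonds), with the median of all genes (dotted) and 2-fold lines (dashed). Gpnmb lies far left of all other members on both scales, at -3.14 and -3.02, while 6 of the 8 diamonds lie between -0.28 and -0.03.

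The counts of Gpnmb were concentrated in few nuclei. In the WT-labelled library, 43 of 329 macrophage-like nuclei had a UMI of Gpnmb, with a median of 3 UMIs and up to 27 in these nuclei, and 18 had at least 5. Of nuclei labelled KO, 42 of 838 had a UMI, with a median of 1 and up to 22, and 10 had at least 5. The 5 nuclei with most UMIs held 39.7% and 49.7% of the Gpnmb counts. Without these 5 nuclei in each library the ratio was 0.0944. By contrast, Lgals3 was found in 112 of 329 and 364 of 838 nuclei and Msr1 in 40 and 213, each with a median of 1 UMI where found. Counting intervals assume independent molecules and are too narrow where the molecules of a gene share nuclei.

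Nuclei were then thinned to 1000 UMIs each, so that detection could be compared at equal depth, which left 253 macrophage-like nuclei labelled WT and 790 labelled KO (76 and 48 were shallower). Gpnmb was detected in 10.7% of nuclei labelled WT (27 of 253, 7.15 to 15.1) and 3.04% of nuclei labelled KO (24 of 790, 1.96 to 4.49), and these intervals did not overlap. For the other 8 genes the intervals overlapped between libraries. The same count over all genes is not given here, so this describes the 9 genes only. Spp1 was detected in 1.58% (0.432 to 4.00) and 0.127% (0.00320 to 0.703), and Cd9 in 9.88% (6.50 to 14.2) and 5.44% (3.97 to 7.26). Trem2 was found in 8.30% and 5.95%, Itgax in 5.14% and 3.42%, Lgals3 in 28.1% and 22.4%, Lipa in 13.4% and 12.8%, Atp6v0d2 in 3.56% and 6.33%, and Msr1 in 7.91% and 11.4%. Before thinning, the shares with a UMI of Trem2 were 15.2% and 13.6%, of Gpnmb 13.1% and 5.01%, of Spp1 2.13% and 0.477%, of Cd9 16.7% and 11.5% and of Msr1 12.2% and 25.4%. The order of the libraries turned for the other 4 genes, with Lgals3 in 34.0% and 43.4%, Lipa in 22.8% and 28.3%, Atp6v0d2 in 9.42% and 8.95% and Itgax in 7.90% and 8.47%. At 500 UMIs it turned for Msr1 (5.47% and 4.53%) and Itgax (1.22% and 2.27%).

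Free RNA in droplets gives UMIs in nuclei that do not express a gene, so shares were read beside those in other classes at the same depth. Lymphocyte-like nuclei had median depths of 998.5 and 2079.5 UMIs before thinning. In the WT-labelled library, 1004 lymphocyte-like nuclei gave 1.20% for Trem2, 2.19% for Gpnmb, 0.498% for Atp6v0d2, 0.697% for Msr1 and 0.598% for Itgax, all below the lower bound of the macrophage-like share. For Cd9 they gave 6.47% and for Lgals3 13.7%, the former close to the lower bound of the macrophage-like share. The lymphocyte-like share of Spp1, 0.697%, lay within the macrophage-like interval, so a UMI of Spp1 did not set macrophage-like nuclei apart. In the library labelled KO, Trem2, Gpnmb, Spp1, Atp6v0d2 and Msr1 were found in 0 of 89 lymphocyte-like nuclei, which allows a share of up to 3.37%, a limit above the macrophage-like shares of Gpnmb and Spp1. Adipocyte-like nuclei of that library, 889 in all, gave 0.337% for Trem2, 0 of 889 for Gpnmb and Atp6v0d2 (which allows up to 0.337%) and 0.112% for Msr1. Itgax reached 6.74% (6 of 89) in lymphocyte-like nuclei labelled KO, above its macrophage-like share, and Cd9 5.62%, so a UMI of these 2 genes did not set macrophage-like nuclei apart from lymphocyte-like nuclei in that library.

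ASPC and fibroblast-like nuclei (260 labelled WT and 763 labelled KO) also held Gpnmb and Cd9. Gpnmb was found in 6.92% (4.15 to 10.7) and 6.29% (4.67 to 8.25) of them, an interval that overlapped the macrophage-like one in the library labelled WT and lay above it in the library labelled KO. Cd9 was found in 16.2% (11.9 to 21.2) and 15.5% (12.97 to 18.2), above the macrophage-like intervals in the library labelled KO and overlapping them in the library labelled WT. For Trem2 they gave 0.769% and 0.393%, for Lipa 3.85% and 4.33% and for Lgals3 12.3% and 10.4%, all below the macrophage-like intervals.

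**Figure D3:**
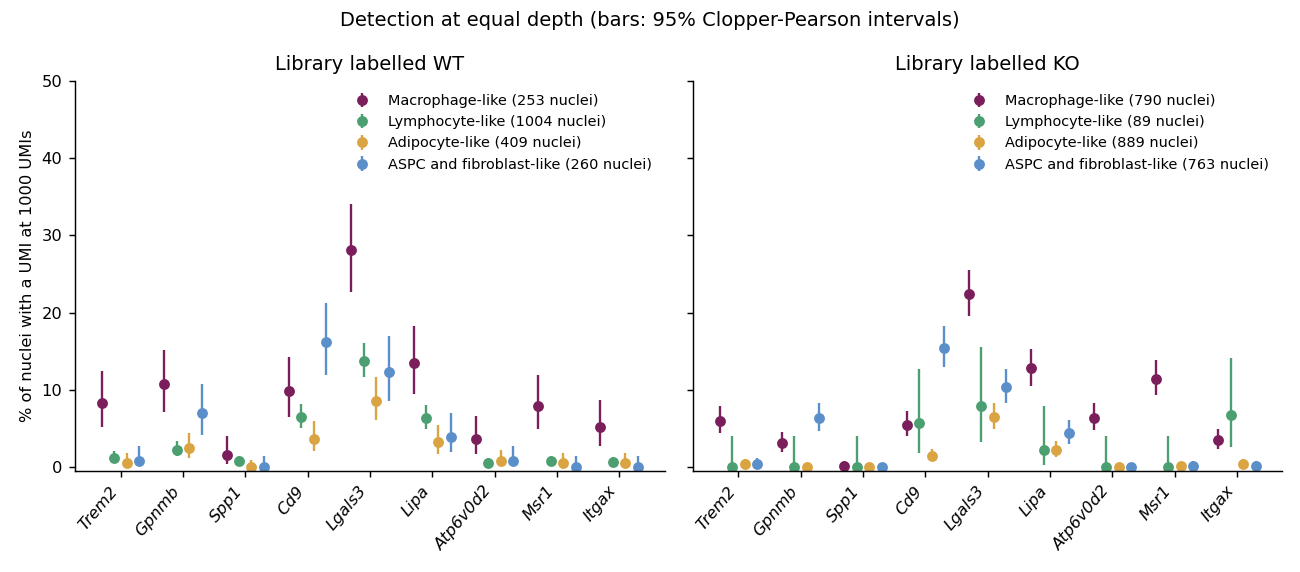
Percent of nuclei with a UMI of each of the 9 genes after thinning to 1000 UMIs, in macrophage-like, lymphocyte-like, adipocyte-like and ASPC and fibroblast-like nuclei of the library labelled WT (left) and the library labelled KO (right), with 95% Clopper-Pearson intervals. ASPC and fibroblast-like nuclei lie above macrophage-like nuclei for Cd9 in both panels and for Gpnmb in the right panel, and lymphocyte-like nuclei do so for Cd9 and Itgax in the right panel.

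To see whether the genes occurred in the same nuclei, the number of the 9 with a UMI was counted per nucleus. At 1000 UMIs, 53.4% of macrophage-like nuclei labelled WT and 44.9% of those labelled KO had at least 1 of the genes. At least 2 were found in 23.7% (60 of 253, 18.6 to 29.4) and 15.6% (123 of 790, 13.1 to 18.3), and at least 4 in 7 and 27 nuclei. ASPC and fibroblast-like nuclei had at least 2 in 5.77% (15 of 260, 3.26 to 9.34) and 4.72% (36 of 763, 3.33 to 6.47), lymphocyte-like nuclei in 3.69% (37 of 1004) and 4.49% (4 of 89), and adipocyte-like nuclei in 1.71% and 0.225%. Without thinning 35.0% and 38.3% of macrophage-like nuclei had at least 2, so that the order of the libraries turned. Before thinning, up to 8 of the 9 genes were found in 1 macrophage-like nucleus of each library.

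**Figure D4:**
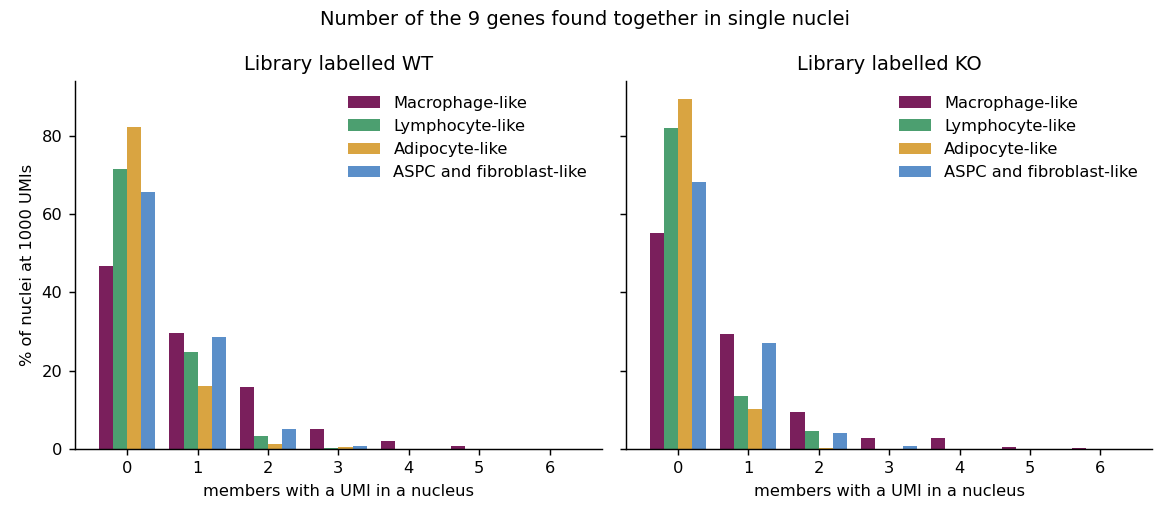
Percent of macrophage-like, lymphocyte-like, adipocyte-like and ASPC and fibroblast-like nuclei by the number of the 9 genes (members) with a UMI after thinning to 1000 UMIs, in the library labelled WT (left) and the library labelled KO (right). Nuclei with 2 or more of the genes are 23.7% and 15.6% of macrophage-like nuclei and at most 5.77% and 4.72% of the other classes drawn.

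Before thinning, 30 macrophage-like nuclei labelled WT (9.12%) and 71 labelled KO (8.47%) had at least 4 of the genes, and they held 53.7% and 47.6% of all UMIs of the 9 genes in the class. They held 50.6% and 64.7% of the Trem2 UMIs, 73.4% and 80.4% of Gpnmb, 70.4% and 78.1% of Atp6v0d2 and 33.3% and 13.03% of Msr1. These nuclei were chosen by the same genes, so high shares follow in part from the choice. They were also deeper, with median UMIs of 3102.5 and 4025 against 1155 and 1900.5 in nuclei with none of the genes, and depth alone raises the number of genes found.

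Pairs of genes were therefore read at 1000 UMIs, where each of the 36 pairs was described by the share with one gene among nuclei with and without the other. In the KO-labelled library the intervals of these shares did not overlap for 13 of 36 pairs, each time with the higher share where the other gene was present. Lipa was found in 46.8% of the 47 nuclei with Trem2 (32.1 to 61.9) and in 10.6% of the others (8.51 to 13.1). Atp6v0d2 was found in 29.8% of nuclei with Trem2 (17.3 to 44.9) and 4.85% of the others, and in 37.5% of the 24 nuclei with Gpnmb (18.8 to 59.4) and 5.35% of the others. Lgals3 was found in 58.3% of nuclei with Gpnmb (36.6 to 77.9) and 21.3% of the others. Gpnmb was found in 14.9% of nuclei with Trem2 (6.20 to 28.3) and 2.29% of the others (1.34 to 3.64). Msr1 was in none of the 13 pairs, and Msr1 and Cd9 were found together in 1 nucleus, 0.204 times the product of their shares.

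In the library labelled WT, with fewer nuclei, the intervals did not overlap for 1 of 36 pairs, Lipa in 33.3% of the 27 nuclei with Gpnmb (16.5 to 54.0) and 11.1% of the others (7.29 to 15.9). This pair was not among the 13, and 0 pairs stood apart in both libraries. The count of nuclei with both genes was above the product of the 2 shares for 28 of 36 pairs in the WT-labelled library and 25 of 36 in the KO-labelled library, with medians of 1.68 and 2.20 times that product. Pairs share genes and nuclei and are not independent of each other. The same counts for pairs of other genes are not given here, so the pair counts of both libraries describe the listed genes only. The clusters differ in their levels of these genes, and the part of this difference in the pair counts was not tested. Shares of nuclei with at least 2 of the genes within clusters are given next.

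Among macrophage-like nuclei of the library labelled KO, clusters 9 and 3 held the genes at different levels. The clusters were made from other genes of the same nuclei, with the 9 genes left out of the variable genes, so these values are descriptions. Cluster 9 (264 nuclei) held 12.1 times the CPM of Gpnmb of cluster 3 (550 nuclei), 119.8 against 9.90. The ratio was 33.4 for Itgax (117 against 7 counts), 6.58 for Atp6v0d2, 5.89 for Cd9, 4.06 for Lgals3, 3.71 for Trem2 and 3.59 for Lipa. Msr1 went the other way, at 60.4 CPM in cluster 9 and 174 in cluster 3, a ratio of 0.348 (0.256 to 0.464). Of 7712 genes, 7.75% were at least 2 times higher in cluster 9 and 8.23% were at or below 0.5. At 1000 UMIs, 76 of 252 nuclei of cluster 9 (30.2%, 24.6 to 36.2) and 44 of 529 of cluster 3 (8.32%, 6.11 to 11.0) had at least 2 of the genes.

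Clustering each library on its own gave 2 macrophage-like clusters in each. In the KO-labelled library, cluster KO5 (294 nuclei), led by Mmp12, the gene of macrophage elastase, and Atp6v0d2, held 120 CPM of Gpnmb, 137 of Trem2 and 121 of Itgax, against 15.1, 41.6 and 2.41 in cluster KO1 (527 nuclei), which was led by Ms4a4a, Cd163 and F13a1, genes of resident macrophages. Spp1 had 21 counts in KO5 and 0 in KO1, with 17 of the 21 in 1 nucleus. The ratio was 11.7 with 3 counts in place of the 0, and the lower bound of its interval was 8.71. With both libraries clustered together it had 4 counts in cluster 9 and 0 in cluster 3, a ratio of 2.66 by the same rule (lower bound 1.32). Msr1 was lower in KO5, at 65.5 against 179 CPM. Of 7585 genes, 8.73% were at least 2 times higher in KO5 and 7.94% were at or below 0.5.

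In the library labelled WT, cluster WT4 (243 nuclei), led by Cd163, F13a1 and Cd209f, held 568 CPM of Gpnmb and 154 of Trem2, against 39.7 (7 counts) and 11.3 (2 counts) in cluster WT6 (102 nuclei). WT6 was led by Ttn, a muscle gene, and by Timd4, Pla2g2d and Cd209b. The ratio of WT4 to WT6 was 14.3 (6.85 to 35.9) for Gpnmb and 13.6 (3.62 to 114) for Trem2, 3.76 (1.51 to 12.1) for Atp6v0d2, 2.45 (1.15 to 5.97) for Msr1, 2.23 (1.60 to 3.17) for Lgals3 and 2.03 (1.22 to 3.57) for Lipa. Cd9 (0.911), Itgax (0.878) and Spp1 (4.14, 0.602 to 178, with 11 against 1 counts) had intervals that included 1. Of 2694 genes, 9.61% were at least 2 times higher in WT4 and 8.76% were at or below 0.5. In this library Gpnmb and Trem2 thus lay in the cluster with Cd163 at 459 CPM, while in the library labelled KO they were higher in the cluster with less Cd163 (133 CPM in KO5 and 2119 in KO1).

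The clusters with more Trem2 in each library, chosen after these levels were seen, were set side by side. In KO5 against WT4, Trem2 stood at 137 and 154 CPM (ratio 0.892, 0.666 to 1.20). Gpnmb was still lower in the library labelled KO, at 0.211 (0.169 to 0.263). Itgax was 2.70 times higher (1.69 to 4.52) and Atp6v0d2 2.25 times (1.65 to 3.11), with Lipa at 1.52, Cd9 at 1.43, Lgals3 at 1.26, Spp1 at 0.902 and Msr1 at 0.590. Of 5699 genes, 26.8% were at or above 2 and 9.79% at or below 0.5. Among the 9 genes in this pairing, Itgax and Atp6v0d2 stood at or above 2, and Gpnmb alone stood at or below 0.5.

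**Figure D5:**
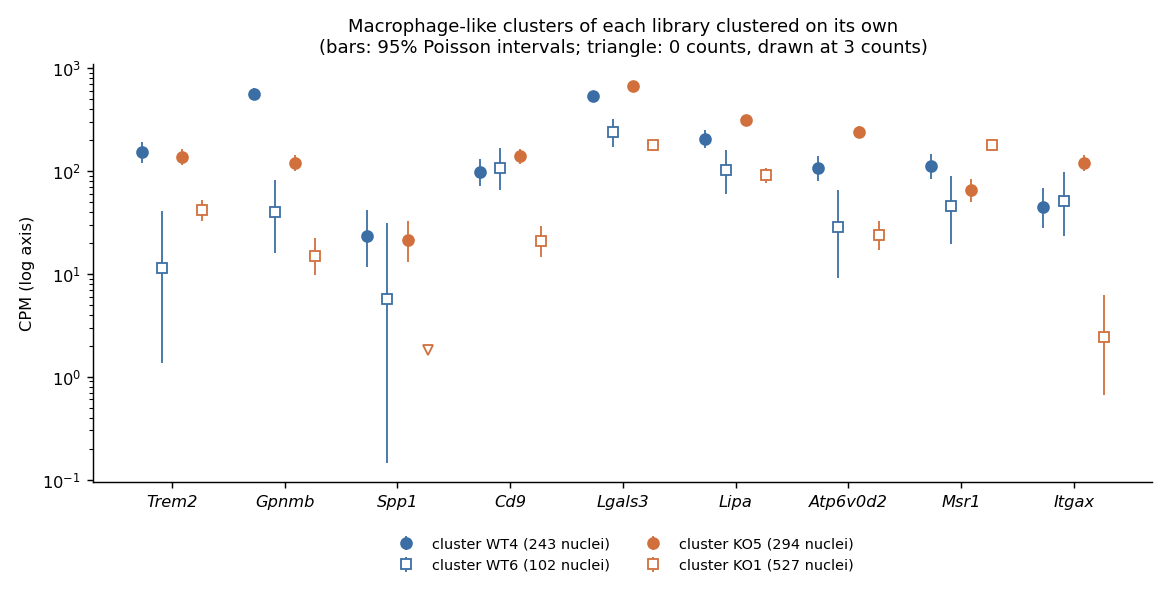
CPM (log axis) of the 9 genes in the macrophage-like clusters of each library clustered on its own, with 95% Poisson intervals and a triangle at 3 counts where a cluster had 0 counts. KO5 lies above KO1 for every gene but Msr1, and WT4 lies above WT6 for all but Cd9 and Itgax, with 1 count of Spp1 in WT6.

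Other genes were compared between macrophage-like nuclei with at least 2 of the 9 genes at 1000 UMIs (60 labelled WT and 123 labelled KO) and nuclei with none (118 and 435). The 9 genes themselves were left out, since they define the groups. In both libraries, 34 of 1471 genes (2.31%) were at least 2 times higher with several of the genes and 20 (1.36%) were at or below 0.5. In each library alone, 3.81% of 1495 and 4.87% of 6536 genes were at least 2 times higher, and 7.36% and 6.76% were at or below 0.5. By the smaller of the 2 ratios, the 10 leading genes were F7, Pcdh7, Mmp12, Ahnak2, Bcar3, Igf2r, Atf3, Dnmt3aos, Il7r and Mfsd12. They were ranked among 1496 candidate genes, not the 1471 above. Some had under 50 counts in the library labelled WT, as F7 (30 against 4) and Dnmt3aos (20 against 4). Such genes are measured mainly through the group where they are high, so the ranking is a description only. Mmp12 was 8.16 times higher (5.26 to 13.2) in the WT-labelled library and 37.1 times (24.2 to 59.6) in the KO-labelled library. F7, coagulation factor VII, was 11.0 times (3.86 to 42.8) and 59.0 times (15.2 to 505) higher, and Igf2r, which carries newly made enzymes to lysosomes, 6.76 times (3.098 to 16.8) and 18.4 times (12.6 to 27.7). Atf3, a stress-induced transcription factor, was 6.82 and 6.37 times higher. Dnmt3aos is antisense to Dnmt3a, and its counts are uncertain, since reads of overlapping partners may not have been told apart.

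The nuclei with several of the genes in the library labelled KO came mostly from cluster 9 (76 of 123, against 111 of the 435 with none). With nuclei of cluster 9 alone in that library, 34 of 1320 genes were at least 2 times higher in both libraries, and 29 of these were among the 34 above. Within cluster 9, Mmp12 was 26.1 times higher (13.9 to 55.2). In cluster 3 Mmp12 had 3 and 12 counts, a ratio of 1.79 (0.325 to 6.65), and Igf2r had 2 and 17 counts and Atf3 1 and 18 there. Pcdh7 was higher in cluster 3 too, at 5.74 (1.97 to 16.2, 8 against 10 counts). Ahnak2 stood at 7.18 (1.34 to 38.5, 4 against 4 counts) and Bcar3 at 1.79 (1.07 to 2.89). The intervals of the other leading genes included 1 in cluster 3.

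Genes of other lipid and lysosome functions were read from fixed lists in the same comparison. Of 23 measured genes of lysosomes and lipid handling, 8 were at least 2 times higher in both libraries and 0 were at or below 0.5, against 2.31% and 1.36% of all genes. Their medians were 1.28 and 2.81, against 0.928 and 1.00 over all genes. Lpl, which releases fatty acids from lipoproteins, was 3.39 and 4.49 times higher, and Mmp12 was among the 8. The other 6, named after their values were seen, were Cd36, Plin2, Ctsd, Ctsl, Nceh1 and Soat1, with 2.44 to 2.82 times in the WT-labelled library and 3.36 to 4.38 in the KO-labelled library. These genes were chosen by their values in the same nuclei. Within clusters of the library labelled KO the whole list was therefore read over genes with at least 50 counts in the cluster. In cluster 9, 18 of 26 were at least 2 times higher, against 8.17% of 3085 genes, and in cluster 3 5 of 25, against 1.94% of 4905, with 0 at or below 0.5 in either, against 11.8% and 6.16%. The ratios of Lpl were 4.09 and 1.69 and those of Cd36 5.32 and 3.08 in clusters 9 and 3. Psap, the precursor of lysosomal saposins, was 1.66 (1.44 to 1.92) and 2.81 (2.59 to 3.04) times higher, and Ctsb, a cathepsin, 1.28 and 2.27. Of 6 measured V-ATPase subunits, the partners of Atp6v0d2, 0 passed in both, with Atp6v0a1 at 1.96 and 3.09, Atp6v1b2 at 1.67 and 3.50, and Atp6v0b at 0.854 and 1.21. In cluster 9, 7 of 13 V-ATPase genes were at least 2 times higher and 1 at or below 0.5, with Atp6v0a1 at 8.46, and in cluster 3 0 of 14 passed in either direction.

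Of all genes, 2.31% were at least 2 times higher in both libraries and 1.36% were at or below 0.5 in both. Of 4 measured TREM2 signalling genes, 0 passed in either direction in both libraries. Syk stood at 0.634 (0.439 to 0.905) and 0.884 (0.770 to 1.01), and Apoe, an apolipoprotein that TREM2 binds, at 0.554 (0.495 to 0.619) and 0.953 (0.893 to 1.02). Of 6 other scavenger receptors, 2 were at or below 0.5 in both, Cd163 at 0.310 and 0.446 and Timd4, a receptor for phosphatidylserine, at 0.319 and 0.421. Mrc1, the mannose receptor, stood at 0.549 and 0.546. Of the other lists, 0 of 2 measured MiT family and other factors, 0 of 5 osteopontin receptors and beta-2 integrins, 0 of 5 galectins and tetraspanins and 0 of 3 genes of macrophage growth and fusion passed in both libraries. With shares over all genes this low, counts of 0 in such short lists, the V-ATPase subunits among them, are descriptions and not results about the lists. Atf3 and Pparg, also among the MiT family and other factors, had under 50 counts in the library labelled WT and were not in this tally. Atf3 had 28 against 6 counts there and Pparg 18 against 3. Their ratios were 6.82 and 6.37 for Atf3 and 8.77 and 4.35 for Pparg. Dcstamp, which is needed for macrophage fusion, had 3 counts in macrophage-like nuclei labelled WT and 82 in those labelled KO, where it was 31.9 times higher (12.8 to 102) with several of the genes (50 against 5 counts). Dcstamp, and in the library labelled WT Atf3 and Pparg, are measured mainly through the group where they are high. These ratios are therefore descriptions only.

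The values of the library labelled KO pool clusters that differ in these genes, so the lists were also read within clusters, a choice made after seeing the data. Apoe was higher with several of the genes in both clusters, at 1.55 (1.44 to 1.68) in cluster 3 and 2.10 (1.77 to 2.49) in cluster 9, against 0.953 pooled. Tyrobp stood at 2.10 (1.52 to 2.85) and 1.57 (1.21 to 2.06), Syk at 0.688 (0.527 to 0.885) and 0.859 (0.714 to 1.03) and Inpp5d at 0.724 (0.594 to 0.875) and 0.457 (0.365 to 0.568). Of 10 TREM2 signalling genes in cluster 3, 1 was at least 2 times higher (Tyrobp) and 1 at or below 0.5 (Pik3cg), against 1.94% and 6.16% of all genes. Of 7 in cluster 9, 1 was at least 2 times higher (Apoe) and 2 at or below 0.5 (Plcg2 and Inpp5d), against 8.17% and 11.8%. The list medians were 0.839 in cluster 3 and 0.859 in cluster 9, against 0.964 and 0.938 over all genes.

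Among the scavenger receptors, Mrc1 stood at 0.991 (0.903 to 1.09) in cluster 3 and 0.806 (0.661 to 0.982) in cluster 9, and Cd163 at 0.968 (0.857 to 1.09) and 0.499 (0.281 to 0.857). Timd4 had 7 counts with several of the genes and 44 with none in cluster 3 (1.14, 0.434 to 2.56), and 0 and 9 in cluster 9. Others went the other way in cluster 9, with Axl at 2.09 (1.27 to 3.48), Mertk at 1.58 (1.01 to 2.47) and Stab1 at 9.88 (3.51 to 38.4, 33 against 4 counts). In cluster 3 their intervals included 1, with Axl at 0.816, Mertk at 1.11 and Stab1 at 1.18. Stab1 and Timd4 were under the minimum of 50 counts in cluster 9, so their values there are descriptions only. Of 5 receptors past this minimum in cluster 9, 1 was at least 2 times higher (Axl) and 1 at or below 0.5 (Cd163), against 8.17% and 11.8% of all genes.

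In cluster 9, 3 of 4 MiT family and other factors were at least 2 times higher, Mitf (2.59), Pparg and Atf3, against 8.17% of 3085 genes. In cluster 3 this was 1 of 5, Pparg, against 1.94% of 4905 genes. Of the osteopontin receptors and beta-2 integrins, 1 of 7 was at least 2 times higher in each cluster, against 8.17% of all genes in cluster 9 and 1.94% in cluster 3. In cluster 9, 2 of 7 were at or below 0.5, against 11.8% of all genes, among them Itga4 at 0.218 (0.158 to 0.295). Of the galectins and tetraspanins, 1 of 6 in cluster 9 and 0 of 9 in cluster 3 were at least 2 times higher. Counts of 1 or 2 genes in lists this short are descriptions and not results about the lists.

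Lists of other cells were summed in the same nuclei. The adipocyte list was higher with several of the genes, 3466 against 1265 CPM in the WT-labelled library and 4153 against 1842 in the KO-labelled library, and this list holds Lpl and Pparg. In the KO-labelled library, 2 of 12 genes of the list had an interval above 1, Lpl and Pparg, and 5 had one below 1, Plin4, Lipe, Fasn, Ghr and Acsl1. The intervals of Adipoq (171 against 196 CPM) and Plin1 (64.9 against 86.2) included 1. In the library labelled WT, 5 of 10 measured genes had an interval above 1, Plin1 (147 against 25.1 CPM), Plin4, Pparg, Lpl and Acsl1, and 0 had one below. Adipoq stood at 61.2 against 46.1 CPM, with an interval that included 1. The T and NK cell list, which holds Il7r, summed to 1237 against 892 CPM and 236 against 57.7. Il7r, 1 of the 10 leading genes above, gave 63 against 19 and 101 against 22 of these counts. The other 16 genes summed to 851 against 813 CPM (139 and 194 counts) in the library labelled WT and 17.3 against 42.8 CPM (8 and 63 counts) in the library labelled KO. The macrophage list summed to 7054 against 12656 CPM in the library labelled WT and 13637 against 17963 in the library labelled KO. Within clusters of the latter it was not lower, at 23934 against 21536 CPM in cluster 3 and 8042 against 6669 in cluster 9. The adipocyte list summed to 2026 against 1630 CPM in cluster 3 and 5295 against 2498 in cluster 9. The part of adipocyte RNA in these ratios was not tested.

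The same lists were compared between all macrophage-like nuclei of the 2 libraries, where 24.3% of genes were at least 2 times higher in the library labelled KO and 12.9% were at or below 0.5. These ratios were not corrected for gene span. The median log2 ratio was -0.62 over genes spanning 5766 to 8163 bases and 0.70 over genes spanning 81042 to 101193 bases. The part of gene span in the list ratios was not tested. Of 11 measured TREM2 signalling genes, 4 were at or above 2 and 1 at or below 0.5, with Plcg2, a phospholipase below TREM2, at 9.40 (16 against 656 counts), Apoc1 at 4.78, and Inpp5d, the phosphatase SHIP1, at 3.12 (2.68 to 3.64). Of 28 lysosome and lipid handling genes, 0 were at or above 2 and 2 at or below 0.5, Nr1h3 (the oxysterol receptor LXR alpha) at 0.293 and Mmp12 at 0.366 (0.310 to 0.432). Of 8 MiT family and other factors, 3 were at or above 2, Mitf at 6.95, Pparg at 5.46 and Tfeb at 3.97, and 3 were at or below 0.5, with Tfe3 at 0.397. Of 16 V-ATPase subunits, 1 was at or above 2 (Atp6v0d1, the other d subunit, at 2.52) and 2 at or below 0.5, Atp6v0b at 0.399 and Tcirg1 at 0.440. Of 10 other scavenger receptors, 3 were at or above 2, with Colec12 at 7.01, Cd163 at 4.35 and Mrc1 at 3.16, and 2 at or below 0.5, with Timd4 at 0.144. Of 11 galectins and tetraspanins, the families of Lgals3 and Cd9, 0 were at or above 2 and 3 at or below 0.5, with Cd37 at 0.326, Lgals8 at 0.497 and Cd82 at 0.499. Of 9 osteopontin receptors and beta-2 integrins, 1 was at or above 2, Itga9 at 5.29, and 0 at or below 0.5.

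The genes whose levels across classes were most like the summed 9 genes were found by Pearson's r of log2(CPM + 10) over 7 classes in the WT-labelled library and 8 in the KO-labelled library, taking the smaller r. Sirpa, an inhibitory receptor of myeloid cells, had r of 0.946 and 0.894, Psap 0.865 and 0.920, Glud1 0.856 and 0.928, Sgpl1 0.957 and 0.840, and Dclre1c 0.808 and 0.804. These values describe few classes that share a library, its depth and its free RNA.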

How the data were processed

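Single-nucleus RNA-Seq libraries of iWAT, 1 per group, were made from tissue of 3 mice each. The deposited values are raw UMI counts, 1 matrix per library of 31053 genes by 5000 barcodes. Per the file headers they came from Cell Ranger 6.1.1, and the submitters' processing notes name mm10 and Seurat 4. Annotation, intron counting and removal of free RNA are not given in the sources used here. The matrices held 9376351 (labelled WT) and 19655049 (labelled KO) UMIs.

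Barcodes with at least 500 genes and at most 5% mitochondrial UMIs were kept (3649 and 2944). Scrublet (scanpy 1.11.5) marked 92 doublets in the library labelled KO, which were removed, and 0 in the library labelled WT, where the 4% with the highest scores (146) were removed. The libraries shared 10 of the kept barcodes. Seurat 5.3.0 (R 4.3.3) grouped the nuclei of both libraries together (2000 variable genes without the 9 genes and no alignment of libraries, 20 components, resolution 0.5). A marker passed in a cluster with a UMI in at least 5% of nuclei and at least 2 times the CPM of other clusters, and a class name needed 3 passing markers and a lead of 3 over the next list. Names are rebuilt here and may differ from those of the study.

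Counts were summed by class and library and scaled to CPM. Exact Poisson, Clopper-Pearson and conditional binomial 95% intervals cover counting error only. A ratio of at least 2 or at most 0.5 was called, over genes with at least 50 counts (in the comparison of nuclei with several and none of the genes, over genes with enough counts in both libraries). A count of 0 was bounded by 3 counts. Thinning was 1 seeded draw without replacement. The ratio, share and thinning steps were tested on simulated data. Named genes were the 9 members, from each fixed list the 3 with the highest macrophage CPM and up to 3 with the largest fold, the 10 with the largest ratio with several members, and the 5 most alike in pattern. Alternatives changed the gene minimum, doublet removal, resolution, separate clustering, naming by each nucleus's own markers, scaling (edgeR 4.0.16 TMM factors, and totals without mitochondrial genes and Malat1), gene span, thinning depth and the number of members. The members, lists and motifs were chosen with earlier results of these data known.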

Additional observations from a re-analysis of the deposited data

How the results depend on the processing

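Each setting changed 1 choice. The sum over the 9 genes rests in large part on Gpnmb, which gave 290 of its 1021 counts labelled WT and 143 of its 2779 labelled KO. For the summed 9 genes the ratio between libraries of 0.624 became 0.691 with at least 1000 genes per barcode, 0.766 at resolution 0.2, 0.682 with the libraries clustered separately, 0.801 with nuclei assigned by their own markers, 0.541 with mitochondrial genes and Malat1 out of the total (a log2 shift of -0.21 for every gene) and 0.535 without cluster WT6, a setting chosen after seeing the data. The ratio of Gpnmb stayed between 0.0888 and 0.155 in all settings run. Members at or above 2 became 1 with at least 1000 genes (Msr1, 2.28). Members at or below 0.5, 2 with Spp1 counted, became 1 after correction for gene span, where Spp1 has no value, and 3 without cluster WT6 (Trem2, 0.464). Shares with at least 2 of the genes depended on depth, at 10.9% and 6.44% with 500 UMIs and 35.0% and 38.3% without thinning (labelled WT and labelled KO), as did shares with at least 1, at 36.8% and 27.6%, and 63.8% and 72.8%. The order of the libraries turned without thinning for both, and for 4 of 9 single-gene shares without thinning and 2 of 9 with 500 UMIs. Among members whose interval excluded 1, directions reversed for Lgals3 (1.09 with own markers), Msr1 (0.981 after correction for gene span) and Gpnmb in macrophage-like against other nuclei labelled KO (0.803 with own markers). Members whose interval included 1 also crossed 1, Atp6v0d2 after correction for gene span (0.976), Itgax with separate clustering (1.01) and own markers (1.01), Lipa with at least 1000 genes (1.06), at resolution 0.2 (1.05) and without 5 nuclei (1.03), and Cd9 in macrophage-like against other nuclei labelled WT with separate clustering (0.966). The cause was not tested. Of the other values (ratios and shares of single genes), 222 stayed within counting error and 64 moved beyond it. No paired analysis was possible because each group has 1 library. Depth limits Spp1, with 13 and 21 counts.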
